A study of Mus musculus with 3 samples.

Results

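Protein phosphatase 2A (PP2A) removes phosphate groups from serine and threonine residues of many proteins and takes part in cell division and in signalling in the early embryo. Its core is a scaffold (A) subunit bound to a catalytic (C) subunit, and a variable B subunit joins them and directs the enzyme to its substrates. Each core subunit has a pair of isoforms encoded by separate genes, Ppp2r1a and Ppp2r1b for the scaffold and Ppp2ca and Ppp2cb for the catalytic subunit. Further proteins activate the catalytic subunit, methylate or demethylate its tail, bind it outside the scaffold or inhibit it.

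The values described here are those of 10 genes out of 23421 gene symbols in the expression table: the 4 core subunit genes and 6 regulators chosen by name, namely Ppp2r4, Ppme1, Lcmt1, Igbp1, Tiprl and Set. All 10 were found, and all 10 had an FPKM (sequenced fragments scaled to transcript length and to library size) of at least 1 in every library. They were measured by total RNA sequencing of mouse embryos at E6.5, when gastrulation begins, with 1 library of each genotype: wild type (WT), tw18/+ and tw18/tw18. All embryos came from matings of tw18/+ mice, strain 129/SvEv by the labels. The study, however, names non-inbred backgrounds that vary from embryo to embryo as a possible reason for the variable phenotype. Differences in background between the libraries are not known and cannot be told apart from genotype. The labels give the tissue as epiblast, and by the study's methods it was the embryo proper, epiblast with the visceral endoderm around it, with the extra-embryonic part kept for genotyping. tw18 is a t haplotype, a variant form of part of chromosome 17, that lacks a stretch holding Ppp2r1a and many other genes, so these embryos are not mutant for Ppp2r1a alone. The comparison asks what becomes of the RNA of the phosphatase and its regulators when the stretch with 1 scaffold gene is lost from 1 or both chromosomes.

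With 1 library per genotype there was no replicate, no test and no p-value. Intervals below are 95% intervals from the estimated number of sequenced fragments, they cover counting error only, and the spread between embryos of a genotype is not known from these data. PCR copies are not independent molecules, so the intervals may be too narrow even for counting error. Library depth was estimated from the steps between low FPKM values at about 13700000 fragments for WT, 19300000 for tw18/+ and 19100000 for tw18/tw18. Taking 200 bases off each gene length gave 15000000, 21200000 and 21000000. These are depths only if FPKM was scaled to each library's own fragments, which is not given, and otherwise they are scaled sizes. In tissue of this kind fewer cells of a type and less RNA per cell cannot be told apart. For stained embryos collected at this age, the study describes the mutants as slightly younger in stage. Stage and genotype therefore cannot be told apart in comparisons with tw18/tw18. The 8 epiblast markers were all detected, with a summed FPKM of 1879 in WT, 2020 in tw18/+ and 1014 in tw18/tw18, and all 8 were lower in tw18/tw18 than in WT. Markers of other tissues moved the other way: in tw18/tw18, 9 of 10 visceral endoderm, 6 of 6 extra-embryonic ectoderm, 6 of 6 stroma, 6 of 6 endothelium, 7 of 8 decidua and 3 of 4 blood markers were higher than in WT, and no marker found was listed at 0. The summed FPKM of stroma markers was 55.8 in WT, 49.5 in tw18/+ and 265 in tw18/tw18, and that of visceral endoderm markers 800, 775 and 984. The summed FPKM in WT, tw18/+ and tw18/tw18 was 13.3, 11.4 and 39.6 for extra-embryonic ectoderm, 36.4, 23.5 and 76.0 for endothelium and 52.5, 56.3 and 177 for blood. In the same order, the alpha-globin genes went opposite ways, Hba-a1 with 52.2, 27.1 and 0.0070 and Hba-a2 with 0.020, 26.9 and 127. Whether reads of these genes were kept apart was not tested, so the count of 3 of 4 blood markers is weak. The decidua sum of 1715, 342 and 930 was highest in WT and rested mostly on Prl8a2, a prolactin-family hormone of the decidua, with an FPKM of 1504, 155 and 377. The share of these cell types in the differences below was not tested.

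The isoforms of each core subunit had to be told apart by 50-base reads, so their coding sequences were compared first. The coding sequence of Ppp2r1a (chr17:20945311-20965916, plus strand, 15 exons, GRCm38) shared 76.8% of its 1770 bases with that of Ppp2r1b (chr9:50845301-50894229, plus strand, 17 exons), and 86.4% of 589 aligned residues were identical. In their most alike stretch of 120 bases, shown because it is where a read could most easily be given to the wrong gene, 14 bases differed, which are in capitals. Both are read 5′ to 3′ from the GENCODE transcript sequences across exons 10 to 12, and the genomic spans include the introns between, chr17:20960598-20961601 and chr9:50870195-50878054.
Ppp2r1a: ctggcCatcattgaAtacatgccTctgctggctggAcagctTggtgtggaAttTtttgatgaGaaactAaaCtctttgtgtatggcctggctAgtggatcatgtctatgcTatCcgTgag
Ppp2r1b: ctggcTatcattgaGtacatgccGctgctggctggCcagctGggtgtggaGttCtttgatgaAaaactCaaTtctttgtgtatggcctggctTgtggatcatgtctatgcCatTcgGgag

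The capitals are spread over the whole stretch. No run of 50 bases was shared by the scaffold genes, the longest identical run was 23 bases, and every one of 1697 aligned 50-base stretches held at least 4 differences. The catalytic genes Ppp2ca (chr11:52098681-52127778, plus strand) and Ppp2cb (chr8:33599625-33619441, plus strand) were closer as proteins, with 301 of 309 residues identical, while 81.7% of 930 coding bases were. Their most alike 120 bases lie within exon 2 of each gene, at chr11:52113177-52113296 and chr8:33610712-33610831, and differed at 17 bases, again in capitals.
Ppp2ca: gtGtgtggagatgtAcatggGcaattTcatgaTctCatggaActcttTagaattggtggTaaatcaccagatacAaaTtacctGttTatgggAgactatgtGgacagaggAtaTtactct
Ppp2cb: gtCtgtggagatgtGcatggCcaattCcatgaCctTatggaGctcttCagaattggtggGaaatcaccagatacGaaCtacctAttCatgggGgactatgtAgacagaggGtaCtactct

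The longest run shared by the catalytic pair was 25 bases, and each of 881 aligned stretches of 50 bases held at least 3 differences. A 50-base read from the coding sequence of any of the 4 subunit genes therefore has no exact copy in the coding sequence of its partner.

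Ppp2r1a encodes the scaffold subunit A alpha, PR65 alpha. Its FPKM was 146 in WT, 81.7 in tw18/+ and 12.8 in tw18/tw18. The level went down with each copy of tw18, and it left Ppp2r1a at rank 441 of the 11859 genes that reached an FPKM of 1 in WT, at 882 of 11879 in tw18/+ and at 5374 of 12402 in tw18/tw18. In tw18/+ the FPKM was 55.9% of WT (interval 53.1 to 58.7), a log2 ratio of -0.84. In tw18/tw18 it was 8.72% of WT (interval 7.87 to 9.63), a log2 ratio of -3.52, and 15.6% of tw18/+. Among 12917 genes compared between tw18/tw18 and WT, this was the decrease with rank 129 in size. That ranking asked for an FPKM of 1 only in the higher library, so genes near 0 in tw18/tw18 could enter it. Of the 11069 genes that reached an FPKM of 1 in every library, 1 had a log2 ratio below -3.8 and 0 lay between -3.8 and -3.6. Between -3.6 and -3.4 there were 2, counting Ppp2r1a.

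The tw18/tw18 value was not 0. It corresponds to about 432 fragments on the coding sequence, against about 3553 in WT, and its interval is 11.6 to 14.0 FPKM. Of the 50-base stretches in the annotated Ppp2r1a transcripts, 0.0849% (3 of 3533) were shared with any other gene, all 3 with the pseudogene Gm11838. Genes that lie near Ppp2r1a, in or at the edge of the lost stretch, were set beside it. Of 59 genes of the table between Vmn2r99 and Zfp13 on chromosome 17, 9 had an FPKM of at least 5 in WT: Ppp2r1a and 8 zinc finger genes, whose products are mostly DNA-binding proteins. In tw18/tw18 the 8 had from 2.76% (Zfp51) to 68.7% (Zfp13) of their WT FPKM with a median of 7.04%. Their highest FPKM in WT was 14.8, far below the 146 of Ppp2r1a. Zfp13 (chr17:23575844-23599487), with an FPKM of 10.9, 8.58 and 7.46 in WT, tw18/+ and tw18/tw18, is the last gene at the far end of the set. Its neighbour there, Zfp213 (chr17:23556767-23564238), had 1.57, 1.11 and 3.63, so neither gene had the low tw18/tw18 level of the other 7 zinc finger genes. Genes under an FPKM of 5 in WT also varied further inside the stretch. Vmn2r-ps129 kept 82.0% of WT in tw18/tw18 and Zfp53 38.2%, against 2.02% for Zfp229 and 6.13% for Zfp160. The study places the far end of the lost stretch, approximately, by a sharp rise in read density of tw18/+ genomic DNA. Zfp213 and Zfp13 lie inside the position it gives, and whether they are lost in tw18 was not tested here. Without Zfp13 the range in tw18/tw18 was 2.76% to 19.5% (Zfp944), and the 8.72% of Ppp2r1a lay above 6 of the other 7 and below Zfp944. In tw18/+ the 8 had 31.7% to 79.0% of WT with a median of 46.2%. Without Zfp13 the highest there was Zfp942 at 55.4%, just under the 55.9% of Ppp2r1a. The markers of stroma, endothelium and decidua given above were present in the same tw18/tw18 library, and their part in the remaining Ppp2r1a RNA was not tested.

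**Figure D1:**
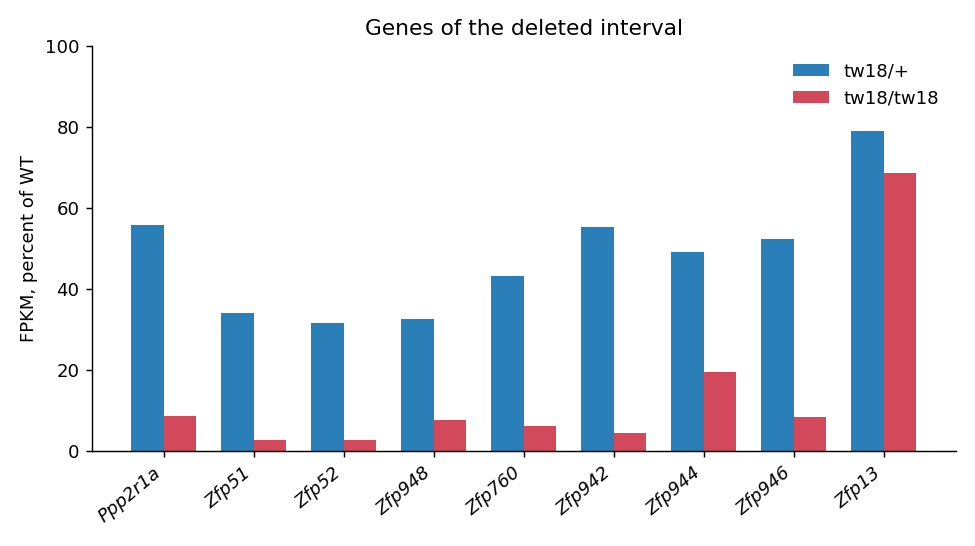
FPKM of Ppp2r1a and of the 8 other genes in or at the edge of the lost stretch with an FPKM of at least 5 in WT, as percent of WT (linear axis from 0), in tw18/+ (blue bars) and tw18/tw18 (red bars), 1 library each and no error bars. Apart from Zfp13 at 68.7% and Zfp944 at 19.5%, the tw18/tw18 bars end at or below the 8.72% of Ppp2r1a.

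Ppp2r1b encodes the scaffold isoform A beta and lies outside the deletion. Its FPKM was 30.4 in WT, 30.3 in tw18/+ and 24.4 in tw18/tw18. It was no higher in either tw18 library than in WT. The log2 ratio to WT was -0.0081 in tw18/+ (interval -0.14 to 0.12) and -0.32 in tw18/tw18 (interval -0.46 to -0.18), and the latter came to -0.11 when the libraries were scaled to equal FPKM sums. The upper bounds are below a log2 ratio of 0.5 in both comparisons. Of its 50-base stretches 20.4% were shared with Sik2, which overlaps it on the other strand and whose FPKM was 6.401, 7.30 and 7.44 in WT, tw18/+ and tw18/tw18. The libraries were strand-specific, but whether counting used the strand is not given in the sources used here.

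Ppp2ca, the catalytic subunit C alpha, had the highest FPKM of the 4 core genes in every library, with 167 in WT, 162 in tw18/+ and 127 in tw18/tw18. Ppp2cb, the isoform C beta, had 49.2, 48.0 and 36.9. The pair moved alike. In tw18/+ the log2 ratio to WT was -0.049 for Ppp2ca (interval -0.13 to 0.032) and -0.035 for Ppp2cb (interval -0.18 to 0.12). In tw18/tw18 it was -0.40 for Ppp2ca (interval -0.49 to -0.31) and -0.41 for Ppp2cb (interval -0.57 to -0.25). Neither came near a log2 ratio of 1, and with equal FPKM sums these values were -0.19 and -0.20. Ppp2cb shared no 50-base stretch with another gene, whereas 41.0% of those of Ppp2ca were shared, mostly with 9430098F02Rik, a long noncoding RNA gene on the other strand.

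**Figure D2:**
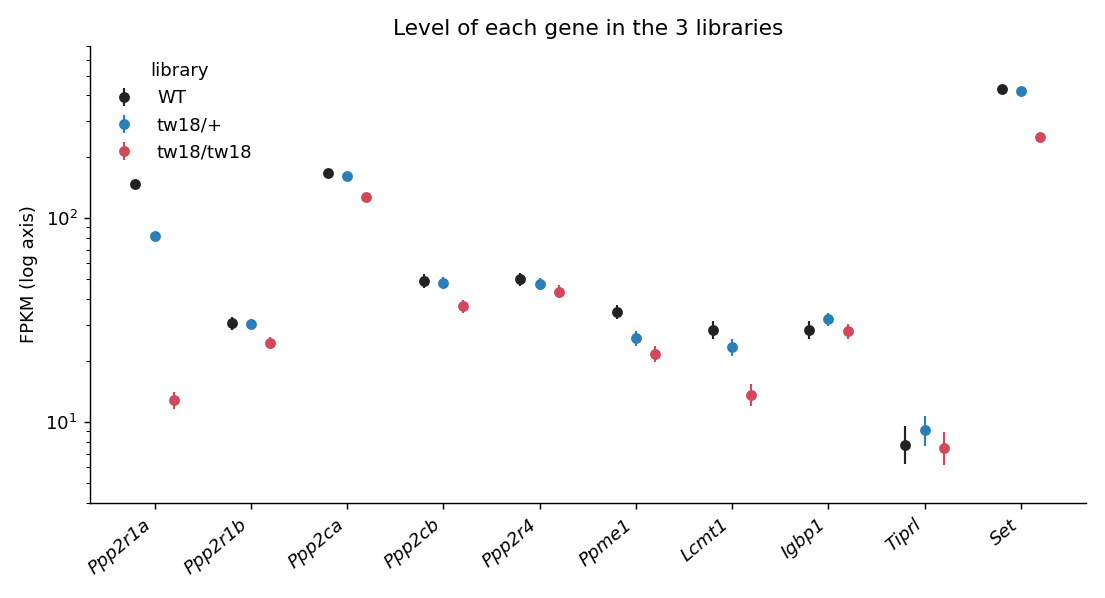
FPKM on a log axis of each of the 10 genes in WT (black), tw18/+ (blue) and tw18/tw18 (red), 1 library each, with bars for the 95% counting interval. Ppp2r1a goes from 146 through 81.7 to 12.8, past Ppp2r1b at 24.4, while Ppp2ca and Set remain the highest of the 10 in tw18/tw18.

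Because FPKM is per length, levels of different genes of 1 library can be set beside each other, and ratios within a library do not depend on how libraries were scaled. Scaffold FPKM summed over both isoforms was 177 in WT, 112 in tw18/+ and 37.2 in tw18/tw18. Catalytic FPKM summed over both isoforms was 217, 210 and 164. In tw18/tw18 scaffold RNA was thus at 21.02% and catalytic RNA at 75.6% of the WT sums, and in tw18/+ at 63.4% and 96.9%. The ratio of scaffold to catalytic FPKM was 0.816 in WT (interval 0.778 to 0.856), 0.534 in tw18/+ (interval 0.510 to 0.558) and 0.227 in tw18/tw18 (interval 0.213 to 0.242). These intervals do not overlap. The sums describe whole libraries. Since tw18 lacks Ppp2r1a, the source of the 12.8 FPKM of Ppp2r1a counted in the tw18/tw18 sum is not known and was not tested.

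Ppp2r1b held the larger share of scaffold RNA in tw18/tw18, although its own FPKM was no higher than in WT. As tw18 lacks Ppp2r1a, a higher Ppp2r1b share and a lower scaffold to catalytic ratio were largely given by the genotype. For the same reason, the tw18/tw18 shares are those of the library and need not be those of cells without the gene. Where its remaining Ppp2r1a RNA came from was not tested. Ppp2r1b made up 17.2% of scaffold FPKM in WT (exact binomial interval 16.1 to 18.3), 27.0% in tw18/+ (25.7 to 28.4) and 65.7% in tw18/tw18 (63.0 to 68.2). Ppp2r1a FPKM was thus 4.81 times that of Ppp2r1b in WT and 2.70 times in tw18/+, while in tw18/tw18 Ppp2r1b was 1.91 times Ppp2r1a. The Ppp2r1b FPKM relative to catalytic FPKM was 0.140 in WT (interval 0.130 to 0.152), 0.144 in tw18/+ (0.135 to 0.154) and 0.149 in tw18/tw18 (0.138 to 0.160). These last intervals overlap, but overlap does not decide whether 2 libraries differ. No interval for the difference was computed, so a difference in Ppp2r1b per catalytic RNA was not tested. The catalytic isoforms kept to nearly the same shares, with Ppp2cb at 22.7% (21.1 to 24.3), 22.9% (21.5 to 24.2) and 22.6% (21.04 to 24.1) of catalytic FPKM in WT, tw18/+ and tw18/tw18.

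**Figure D3:**
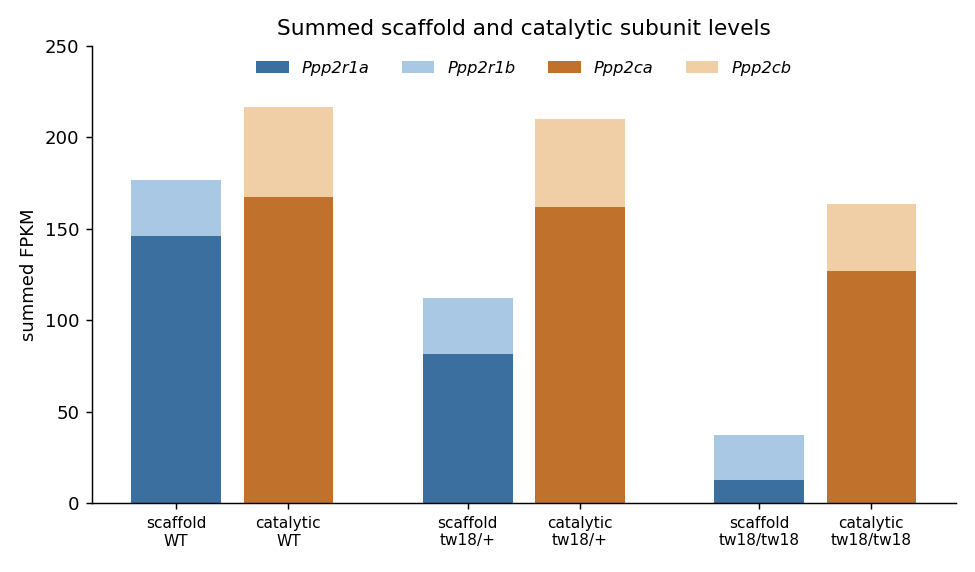
Summed FPKM (linear axis from 0) of the scaffold genes Ppp2r1a and Ppp2r1b (blue) and the catalytic genes Ppp2ca and Ppp2cb (orange) in the 3 libraries, without error bars. The scaffold bar goes from 177 to 37.2 while the catalytic bar goes from 217 to 164, and in tw18/tw18 most of the scaffold bar is Ppp2r1b.

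Ppp2r4 (annotated as Ptpa, chr2:30416039-30447806, plus strand) encodes the phosphatase activator PTPA, which helps bring the catalytic subunit into its active form. Its FPKM was 50.02 in WT, 47.4 in tw18/+ and 43.7 in tw18/tw18. The 3 libraries lay close together, with a log2 ratio to WT of -0.077 in tw18/+ (interval -0.22 to 0.070) and -0.20 in tw18/tw18 (interval -0.35 to -0.047). The sign of the latter flipped to 0.015 with equal FPKM sums.

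Lcmt1 and Ppme1 act on the same carboxyl end of the catalytic subunit: LCMT1 is the methyltransferase and PPME1 the methylesterase that takes the methyl group off. Lcmt1 (chr7:123369784-123430358, plus strand) had an FPKM of 28.3 in WT, 23.2 in tw18/+ and 13.5 in tw18/tw18. Ppme1 (chr7:100326737-100372307, minus strand) had 34.7, 25.7 and 21.6. In the deposited scaling both were lower in tw18/+ and lower still in tw18/tw18, by less than Ppp2r1a. In tw18/+ against WT, 22.0% of genes were lower by at least as much as Lcmt1 and 14.7% by at least as much as Ppme1. In tw18/tw18 against WT these shares were 6.13% and 13.1%. The Lcmt1 log2 ratio to WT was -0.29 in tw18/+ (interval -0.49 to -0.086) and -1.07 in tw18/tw18 (interval -1.30 to -0.83). That of Ppme1 was -0.43 (interval -0.60 to -0.26) and -0.68 (interval -0.86 to -0.50). Between tw18/+ and tw18/tw18 the difference was -0.78 for Lcmt1 and -0.25 for Ppme1, and with equal FPKM sums -0.53 and 0.00086. Lcmt1 had 0.817 times the Ppme1 FPKM in WT, 0.904 times in tw18/+ and 0.625 times in tw18/tw18. No interval was computed for these ratios, so a change in them was not tested. In the same order they rest on about 388, 448 and 259 coding fragments of Lcmt1 and 552, 576 and 481 of Ppme1. Of the 50-base stretches of Lcmt1, 2.53% were shared with Arhgap17, which overlaps it on the other strand, and 0.827% of those of Ppme1 with the overlapping C2cd3.

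Igbp1 and Tiprl encode proteins that bind catalytic subunits outside the usual complex, IGBP1 (alpha 4) protecting the free subunit from degradation. Igbp1 (chrX:100494291-100516125, plus strand) had an FPKM of 28.3 in WT, 31.8 in tw18/+ and 27.9 in tw18/tw18. Tiprl (chr1:165212286-165236996, minus strand), with the lowest FPKM of the 10 in every library, had 7.74, 9.10 and 7.42. They were the only members with a higher level in tw18/+ than in WT, with log2 ratios of 0.17 for Igbp1 (interval -0.017 to 0.35) and 0.23 for Tiprl (interval -0.17 to 0.63), and in tw18/tw18 they stood at -0.023 (interval -0.21 to 0.17) and -0.062 (interval -0.48 to 0.35). Each of these 4 intervals includes 0. Tiprl rests on about 87, 143 and 116 coding fragments, so a difference of the size seen in the catalytic genes could not be resolved for it.

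Set (chr2:30057378-30072577, plus strand) encodes a histone chaperone that also inhibits PP2A. It had the highest FPKM of the 10 in every library, with 432 in WT, 421 in tw18/+ and 249 in tw18/tw18. WT and tw18/+ were nearly level, with a log2 ratio of -0.039 (interval -0.091 to 0.013). The tw18/tw18 library stood apart, with a log2 ratio of -0.79 to WT (interval -0.85 to -0.73) and -0.75 to tw18/+. With equal FPKM sums these became -0.58 and -0.51. Set FPKM was 8.64 times that of Ppp2r4 in WT, 8.87 times in tw18/+ and 5.71 times in tw18/tw18, without an interval for these ratios. Of its 50-base stretches, 29.3% also occurred in other genes, all of them pseudogenes that had no entry in the expression table, so reads of Set and of such copies may not have been separated. The Set level was 57.7% of WT in tw18/tw18 while the summed epiblast markers were at 0.540 times their WT level, and the part of the cell makeup was not tested.

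**Figure D4:**
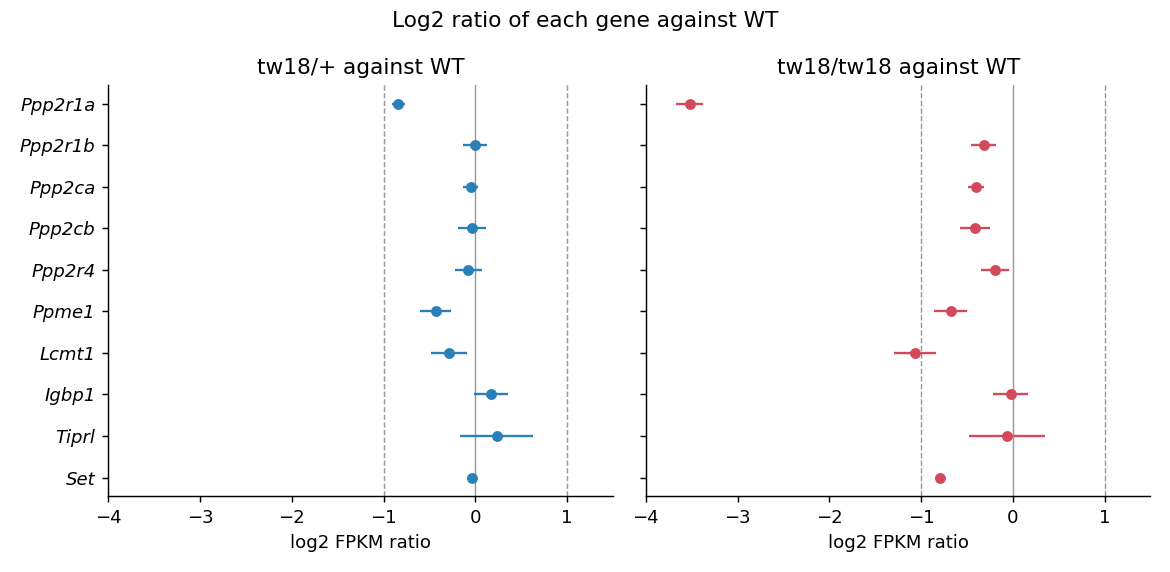
Log2 FPKM ratio to WT of each of the 10 genes in tw18/+ (left) and tw18/tw18 (right), with bars for the 95% counting interval and dashed lines at log2 ratios of -1 and 1. In tw18/tw18 Ppp2r1a lies at -3.52 and Lcmt1 at -1.07, and the other 8 lie between -0.79 and -0.023 in the deposited scaling, of which Ppp2r4, Igbp1 and Tiprl turn positive with equal FPKM sums.

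Counted together, no member was past a log2 ratio of 1 between tw18/+ and WT, where 5.02% of 12426 genes were lower by that much and 4.7% higher. Between tw18/tw18 and WT, 2 of 10 members were lower by at least that much, Ppp2r1a and Lcmt1, and none higher, beside 6.94% of 12917 genes lower and 15.1% higher. The lower pair stayed 2 when an FPKM of at least 5 was asked for, where 4.11% of 9289 genes were lower. With equal FPKM sums Lcmt1 came to -0.85 and Ppp2r1a alone was past the threshold. Between tw18/tw18 and tw18/+, Ppp2r1a alone was lower and none was higher, beside 5.65% of 12846 genes lower and 14.9% higher. At a log2 ratio of 0.5, the lower members were Ppp2r1a in tw18/+ against WT (background 12.3%), Ppp2r1a, Ppme1, Lcmt1 and Set in tw18/tw18 against WT (19.5%), and Ppp2r1a, Lcmt1 and Set in tw18/tw18 against tw18/+ (19.3%). Apart from the gene in the deletion, 1 of 9 members past a log2 ratio of 1 is close to the background, given how few genes these are.

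In direction, 8 of 10 members were lower in tw18/+ than in WT, and 10 of 10 were lower in tw18/tw18 than in either other library, where 49.4%, 53.3% and 53.0% of all 11069 genes reaching an FPKM of 1 in every library were lower in tw18/+ against WT, tw18/tw18 against WT and tw18/tw18 against tw18/+. With equal FPKM sums, 3 of the 10 in each tw18/tw18 comparison turned positive: Ppp2r4, Igbp1 and Tiprl against WT, and Ppp2r4, Ppme1 and Igbp1 against tw18/+. The comparisons with tw18/tw18 share that library and are not independent of each other. Without Ppp2r1a, the median log2 ratio of the other 9 was -0.039 in tw18/+ against WT, -0.40 in tw18/tw18 against WT and -0.31 in tw18/tw18 against tw18/+. Over all genes the medians were 0.0038, -0.049 and -0.049. Over the 7637 genes that reached an FPKM of 5 throughout, nearer to the members' own levels, the median for tw18/tw18 against WT was -0.11.

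**Figure D5:**
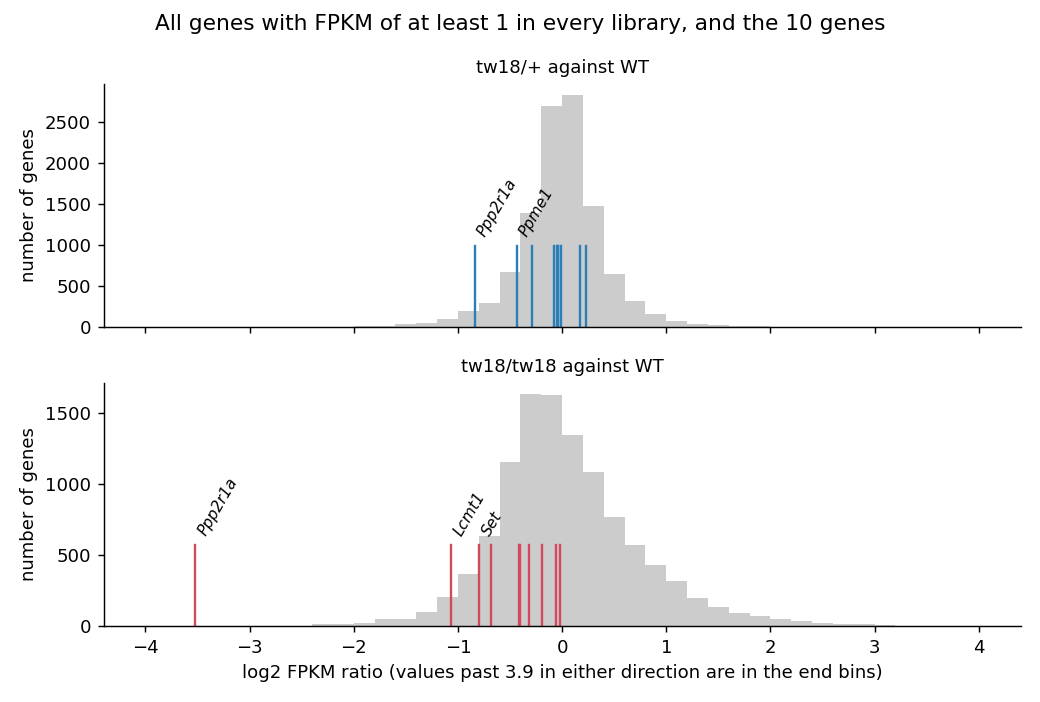
Number of genes (grey) by log2 FPKM ratio for the 11069 genes that reached an FPKM of 1 in every library, for tw18/+ against WT (upper) and tw18/tw18 against WT (lower), with a coloured line at the ratio of each of the 10 genes. In the deposited scaling all 10 lines lie left of 0 in the lower panel (7 of 10 with equal FPKM sums), and Ppp2r1a at -3.52 stands far from the other 9, of which the lowest is Lcmt1 at -1.07.

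The other genes of the phosphatase were followed in a list of 24: 12 B-type regulatory subunits, 3 striatins, which are B subunits of a further class, a set of 7 inhibitors and their regulators with the kinase Mastl, and the related catalytic genes Ppp4c and Ppp6c. Of the 24, 0 were higher and 1 lower past a log2 ratio of 1 in tw18/+ against WT, 0 and 1 in tw18/tw18 against WT, and 1 and 0 in tw18/tw18 against tw18/+. Over all genes the shares higher and lower were 4.7% and 5.02%, 15.1% and 6.94%, and 14.9% and 5.65% in the same comparisons, so 1 of 24 is at or below the background. Ppp2r2c, a B-type subunit best known from brain, had an FPKM of 2.68 in WT, 0.849 in tw18/+ and 1.53 in tw18/tw18, a log2 ratio of -1.66 in tw18/+ against WT. Ppp2r3a, a B-type subunit of the calcium-binding class, had 2.71, 2.33 and 5.41, a log2 ratio of 1.21 in tw18/tw18 against tw18/+. Anp32a, an inhibitor of PP2A and a partner of SET in some complexes, had 142, 120 and 71.2, a log2 ratio of -1.0001 in tw18/tw18 against WT, just at the threshold. Its direction matches that of Set, and no test of likeness was possible. The median log2 ratio of the 24 was -0.067 in tw18/+ against WT, -0.25 in tw18/tw18 against WT and -0.31 in tw18/tw18 against tw18/+. By class, the median for tw18/tw18 against WT was -0.35 for the B-type subunits, 0.14 for the striatins, -0.50 for the set of inhibitors and Mastl, and -0.14 for Ppp4c and Ppp6c. Among the rest, Ppp2r2b had an FPKM under 1 in every library, and the others were within a log2 ratio of 1 in all 3 comparisons.

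The genes with the pattern most like that of Ppp2r1a over the 3 libraries were looked for among genes of at least moderate level. Likeness was measured as the distance between the log2 ratios to WT in tw18/+ and tw18/tw18 as a pair, over 7636 other genes that reached an FPKM of 5 in every library, and 0 lay within 0.5. A gene that drops as far as Ppp2r1a passes this filter only from a high WT level, so such genes of lower level were not searched, among them Zfp946 of the lost stretch, with 52.4% of WT in tw18/+ and 8.44% in tw18/tw18. The nearest of those searched were Trh (distance 0.818), the precursor of thyrotropin-releasing hormone, with an FPKM of 100.04, 89.0 and 12.1 in WT, tw18/+ and tw18/tw18, then Mixl1 (1.11), a homeobox gene of the primitive streak, and the histone gene Hist1h4k (1.34). Trh and Ppp2r1a ended at similar fractions of WT in tw18/tw18, but in tw18/+ the log2 ratio was -0.17 for Trh and -0.84 for Ppp2r1a.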

How the data were processed

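The deposited table gives FPKM per gene symbol and library, made by the authors with TopHat2, Bowtie 1.0.0 and Cufflinks 2.2.1 (Cuffdiff) on mm10 from 50-base paired reads of random-primed TotalScript libraries (14 PCR cycles). The annotation, library scaling, strand setting and number of embryos per library are not given in the sources used here. Groups came from the labels. Log2 ratios are of FPKM without a pseudocount. A gene was called past the threshold when the higher FPKM of the pair was at least 1 and the log2 ratio at least 1 in size. Depth came from the steps between low FPKM values of genes with 1 annotated transcript, of which 83.9% to 86.5% lay within 0.2 of a whole number. The step was picked for its closeness to whole numbers on these same values, so that share is not a separate check. Intervals used fragments over the coding length and are exact binomial for ratios between libraries and for shares, exact Poisson for single levels, and normal on the log scale for ratios of sums. The intervals cover counting error only, and because PCR copies are not independent molecules they may be too narrow even for that. Sequences, positions and shared 50-base stretches came from GENCODE M21 (GRCm38). Ppp2r4 was matched to Ptpa through RefSeq synonyms. All 10 members, the family genes past the threshold, the genes in or at the edge of the deleted stretch with an FPKM of at least 5 in WT and the 3 genes most like Ppp2r1a were named. Zfp213, Vmn2r-ps129, Zfp53, Zfp229, Zfp160 and Ppp2r2b were added after their values were seen. The members and all gene lists were chosen with earlier results of these data known. Alternatives were pseudocounts, filters, thresholds, median centring and equal FPKM sums. Scripts were tested on simulated data. Python 3.11.15, pandas 2.3.3, scipy 1.17.1 and Biopython 1.88 were used.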

Additional observations from a re-analysis of the deposited data

How the results depend on the processing

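With FPKM sums made equal, which shifted every tw18/tw18 against WT log2 ratio up by 0.21 and every tw18/+ against WT ratio by -0.035, the Ppp2r1a log2 ratio was -3.31 for tw18/tw18 against WT and -2.43 for tw18/tw18 against tw18/+, 1 member in place of 2 was lower in tw18/tw18 than in WT, and the sign changed for 6 of 30 member ratios: Ppp2r4, Igbp1 and Tiprl against WT, and Ppp2r4, Ppme1 and Igbp1 against tw18/+. Centring on the median changed 1 of 30 signs, Igbp1 in tw18/tw18 against WT, and pseudocounts of 0.1 and 1 changed 0 of 30 and moved no value by more than 0.099. With a threshold of 0.5 the lower members numbered 1 in tw18/+ against WT, 4 in tw18/tw18 against WT and 3 in tw18/tw18 against tw18/+, and with a threshold of 2 there was 1 in tw18/tw18 against WT. Leaving Ppp2r1a out of the scaffold sum gave a ratio of scaffold to catalytic FPKM of 0.140 in WT, 0.144 in tw18/+ and 0.149 in tw18/tw18. No paired analysis was possible because each genotype had 1 library. For the same reason variation between embryos sets an unknown limit on every difference, and depth is limiting for Tiprl.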
